A study of Homo sapiens with 3 samples.

Results

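MYC lies at 127735434 to 127742951 on the plus strand of chromosome 8 (hg38) and spans 7518 bp. The data described here are the chromatin loops that the authors listed at this gene and in the 4 Mb window around it, from position 126000000 to 130000000. A loop was counted at MYC when either of its ends, taken as the 5 kb that start at the listed position and run towards the other end, overlapped the gene body, and in the window when both of its ends lay inside it. In the authors' deposited table, out of 279618 loops with a readable class, 377 lay in the window and 33.7% of these had an end on MYC, 114 with the other end downstream of the gene and 13 with it upstream. The loops came from Hi-C, in which DNA ends that lie close together in fixed nuclei are ligated and sequenced as pairs, in 3 samples of the human colorectal carcinoma line HCT116. One library was made from ORC2B2, a single clone called ORC2-/- in which ORC2 was deleted with CRISPR/Cas9. Another was made from ORC2 rescue cells, again clonally selected, which carried ORC2 with its own untranslated regions on the vector pLHCXORC2, and the last from the parental line, called wild-type. All 3 were p53-/- and were grown in McCoy's modified medium with fetal bovine serum.

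MYC is a transcription factor that binds DNA as a dimer with MAX and promotes growth and proliferation, and it is one of the most often overexpressed genes in colorectal cancer. It sits in a part of chromosome 8 with few protein-coding genes and many enhancers and long non-coding RNAs (lncRNAs) on both sides, so that its promoter can be reached from elements far away. In colorectal cells, enhancers upstream of MYC bind TCF factors and beta-catenin, the effector of Wnt signalling, and HCT116 carries a stabilised beta-catenin. ORC2 belongs to the origin recognition complex, the assembly that binds chromatin and loads the replicative helicase before S phase.

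The comparison asks which loops change when ORC2 is missing. The authors' deposited table gives each loop a left position, a right position and a class, conserved gain, conserved lost or not conserved, called gained, lost and not conserved below. It does not say which samples were compared for a gain or a loss, so no class is assigned to the deletion or to the rescue, and loops that were not conserved are not taken as unchanged. Each group had 1 library and the list holds no strength, depth or value per sample, so there was no error between cultures and no test between conditions. The Wilson intervals below are 95% intervals for counting error alone, as if loops were independent, which neighbouring loops are not. The intervals of medians treat loops as independent in the same way. The list cannot show whether ORC2 was deleted in the library labelled so.

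Listed loop ends piled up on the start of MYC. Listed ends fell on a grid with a spacing of about 5 kb, and 3 grid bins touched the gene. The first (127731291 to 127736191) holds the MYC start and 758 bases of the gene, the second (127736192 to 127741034) lies wholly inside it with 4843 bases, and the last (127741035 to 127745188) holds the final 1917 bases. In the authors' deposited table, downstream loops numbered 46 from the first bin, 40 from the second and 28 from the last. The number of downstream loops was thus highest at the bin with the start and lower on either side. The bin before the gene had 34, the one before that 11, and the bin after the gene had 9. Positions listed as a left end had a median of 3 loops each over the 53027 such positions of the whole list, and 99.9% of them had fewer loops than the bin with the MYC start. Loops from upstream reached the first bin 10 times and the second 3 times. A further 13 reached the bin just before the gene, where the lncRNA gene CASC11 lies, and these were not counted at MYC. CASC11 ends at 127733967, inside the first bin, so loops of that bin cannot be told apart between CASC11 and MYC.

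**Figure D1:**
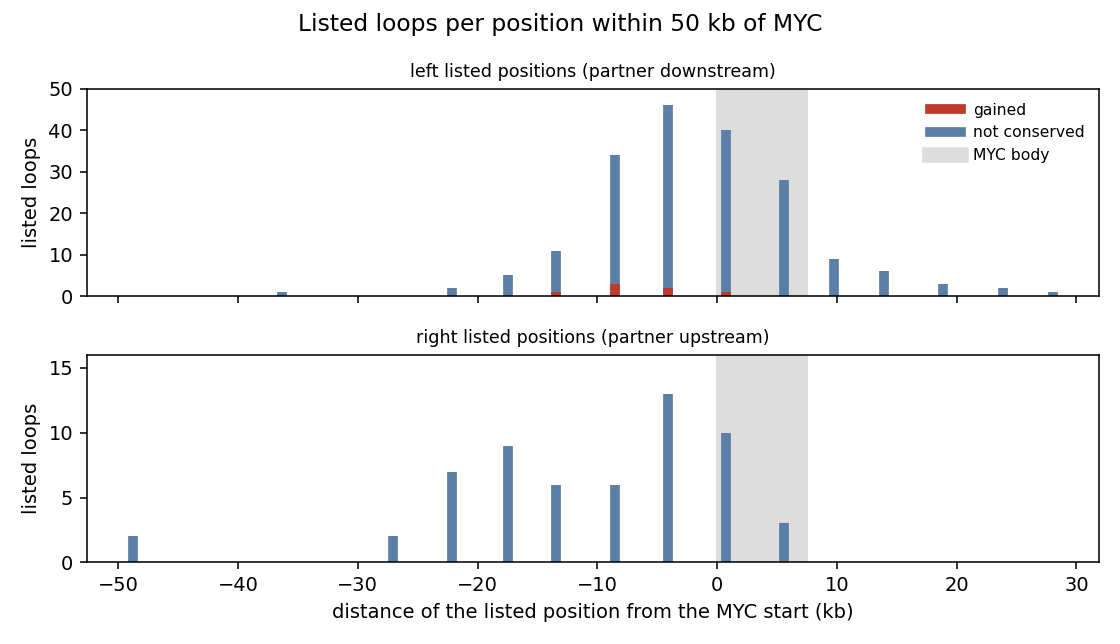
Listed loops per listed position (y axis, number of loops) within 50 kb of MYC against distance from the MYC start (x axis, kb), with left positions above, right positions below, gained loops in red, loops that were not conserved in blue and the MYC body in grey. The downstream loops peak at 46 on the bin that holds the MYC start, and the upstream loops peak at 13 on the position just before it.

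MYC was joined mainly to downstream sites. Of the loops at MYC in the authors' deposited table, 114 had the partner downstream, and the 13 with it upstream made up 10.2%. The partners fell into 11 separate stretches, 9 downstream and 2 upstream, where neighbouring partner positions within 10 kb were joined. No partner end overlapped a protein-coding gene, 72 (56.7%) overlapped no annotated gene at all, and the rest lay on lncRNA genes. The table gives gene bodies without exons, so exon, intron or UTR was not determined.

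The largest downstream stretch, with 41 loops or 32.3% of those at MYC, lay 881 to 965 kb from the MYC start, at 128616347 to 128700626. It holds no annotated gene, and the nearest ones are the lncRNA genes LINC00824, 51.7 kb before it, and LOC124902021, 99.3 kb after it. All 3 MYC bins reached it in the authors' deposited table, with 18 loops from the bin with the start, 13 from the middle bin and 10 from the last. Of 114 listed loops with an end in this stretch, 73 did not touch MYC, and 39 of these ran to within 50 kb of MYC. The other 34 ran elsewhere, so the stretch was shared between MYC and other sites.

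The stretch second in number, with 38 loops (29.9%), lay 327 to 401 kb downstream at 128062863 to 128136736 and spanned the distal end of PVT1. PVT1 is the lncRNA gene next to MYC and its partner in the amplicons and rearrangements of many tumours. Here the 3 MYC bins had 13, 13 and 12 loops, which is close to even. Counted over its whole body, PVT1 had 38 listed loop ends as well, and 27 of these loops had the other end on MYC. None of the loops of this stretch was classed as gained or lost in the authors' deposited table.

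Between and beyond these stretches lay smaller ones, and they differed in which MYC bin they were listed with. The stretch at 128260022 to 128297898, 525 to 562 kb downstream and without an annotated gene, had 8 loops, every one from the bin with the MYC start. The stretch at 128170039 to 128192616, 435 to 457 kb downstream at the lncRNA gene LOC124902020, had 9 loops, 5 from the middle bin, 4 from the last and 0 from the bin with the start. The bins are neighbours on a grid of about 5 kb, so these differences amount to 1 or 2 bins. LINC00824, 670 to 829 kb downstream, had 8 of its 9 listed loops with MYC. The most distant partners lay 1916 to 1926 kb away, inside the lncRNA gene CCDC26 (2 loops), and 1949 to 1959 kb away, between CCDC26 and the gasdermin gene GSDMC (4 loops).

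**Figure D2:**
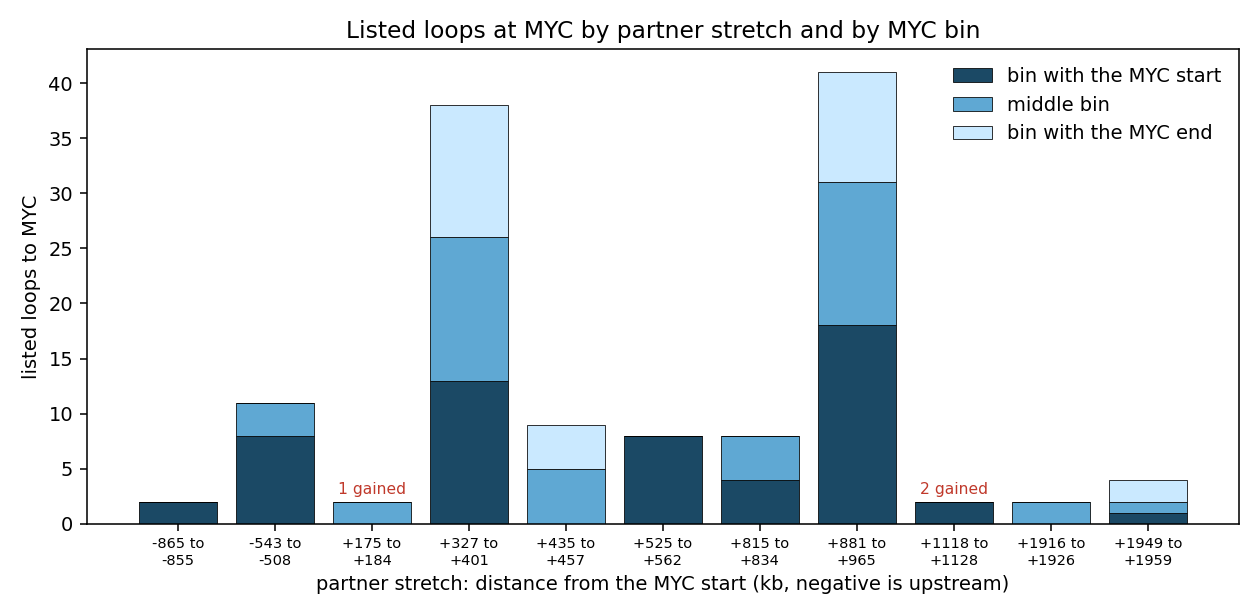
Listed loops to MYC (y axis) in each of the 11 partner stretches, ordered by distance from the MYC start (x axis, kb), with the bars divided by the MYC bin that the loop touches. The stretches at 327 to 401 kb and at 881 to 965 kb hold 38 and 41 loops, and the red labels mark the 2 stretches with gained loops.

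Upstream, most listed loops at MYC ended at the CCAT1 locus. CCAT1 is an lncRNA gene in a strong enhancer region of colorectal cancer cells, and CASC19 is an lncRNA gene beside it. In the authors' deposited table, 11 of the 13 upstream loops ended at 127191943 to 127227022, 508 to 543 kb before the MYC start, and 7 of them had their end on CCAT1 and 2 on CASC19. Of these 11, 8 reached the bin with the MYC start and 3 the middle bin. A further 24 listed loops had an end in this stretch without touching MYC, and 19 of them ran to within 50 kb of MYC. CCAT1 itself had 12 listed loops, so 7 of its 12 were with MYC, and none of the 12 was gained or lost. The other 2 upstream loops ended at 126870615 to 126880541, 855 to 865 kb before MYC, in the body of the lncRNA gene LOC105375751.

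A long stretch between CCAT1 and MYC had no listed loop end. From the start of CASC21 to the end of CASC8, 127244637 to 127482139, a stretch of 238 kb with the genes CASC21, CASC8, CCAT2 and POU5F1B, 0 loops had a listed end. CCAT2 and CASC8 are lncRNA genes of a Wnt-responsive enhancer region, and POU5F1B is a retrogene copy of the pluripotency factor gene POU5F1. The lncRNA genes PCAT1, PCAT2 and PRNCR1 further upstream also had 0 listed loops, as did LRATD2, the next protein-coding gene upstream after POU5F1B. Because the list holds changed loops by its name and gives no depth, 0 listed loops does not show that contacts were absent.

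**Figure D3:**
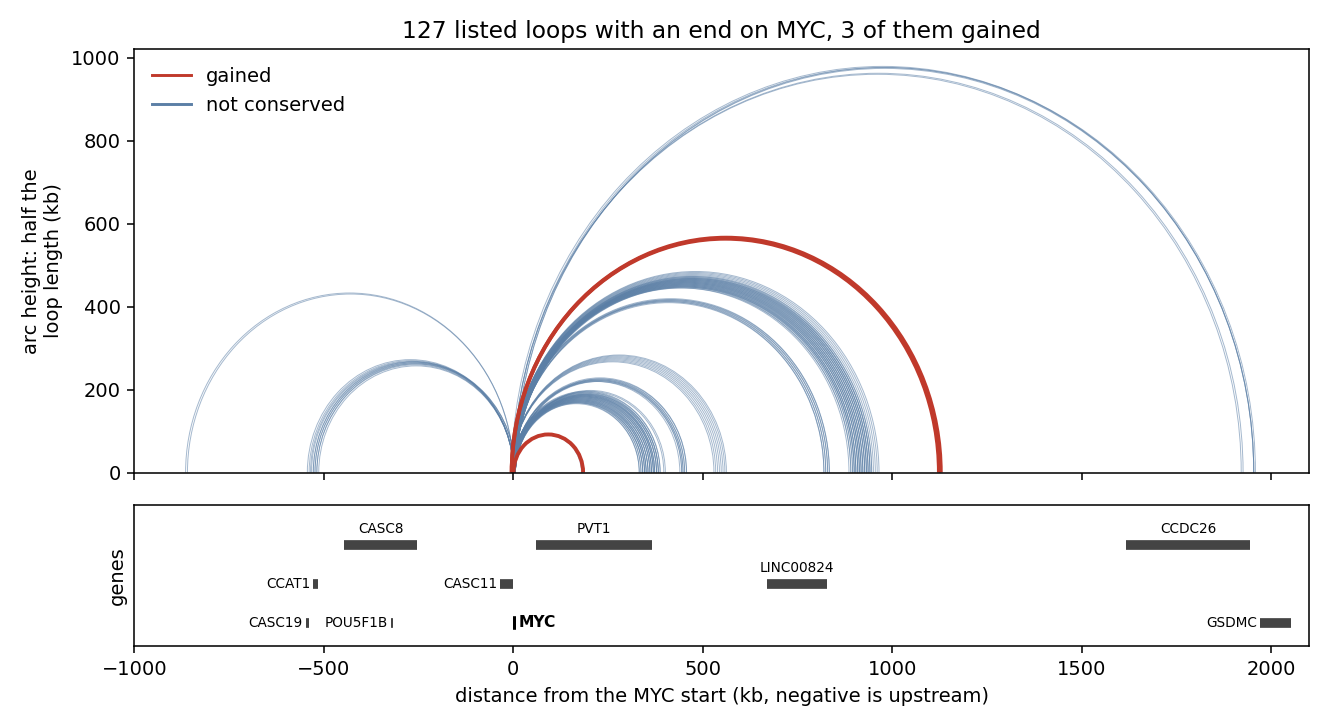
The listed loops at MYC as arcs over distance from the MYC start (x axis, kb; arc height is 0.5 times the loop length in kb), gained in red and not conserved in blue, with gene bodies drawn to scale below. Gained arcs run to PVT1 at about 184 kb and to a site without a gene at about 1128 kb.

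Of the loops at MYC, 3 were gained and 0 lost in the authors' deposited table, all 3 among the 114 downstream ones. The gained share was 2.36% (Wilson interval 0.807 to 6.72%), against 1.96% of all listed loops and 2.43% of those on chromosome 8 outside the window. The share at MYC was therefore near the background of the list. Having 0 lost loops at MYC allows a share of up to 2.36%. Of all listed loops 0.196% were lost, and of those on chromosome 8 outside the window 0.0795%, so a loss at the background share was not detectable.

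A pair of the gained loops joined the bin with the MYC start to a site more than 1 Mb downstream. They ran from 127731291 to 128858703 and to 128863597 and were 1127 and 1132 kb long. They belonged to a block of 6 neighbouring loops of 1127 to 1137 kb, and all 6 were classed as gained in the authors' deposited table. The left ends of the block began at 127722018, 127726942 and 127731291, from 13.4 to 4.14 kb before the MYC start. Of the 6, 4 fell on CASC11 and not on the body of MYC, and the pair at MYC overlapped both genes. The downstream site, 128848926 to 128863597, overlaps no annotated gene and lies between LOC124902021 and the lncRNA gene LINC00976. Every listed loop with an end at the site where the pair from MYC ended, 6 in all, was gained.

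The remaining gained loop at MYC was short. It joined the middle MYC bin to PVT1, from 127736192 to 127919684, and was 183 kb long. The neighbouring loop from the same bin, which ended at 127915390 and was 179 kb long, was classed as not conserved in the authors' deposited table. These were the shortest loops at MYC, and no other listed loop ended in that part of PVT1. None of the 117 loops at MYC between 250 and 1000 kb was gained. Of all listed loops, 1.87% were gained at 250 to 500 kb and 3.57% at 500 to 1000 kb. Having 0 gained at MYC allows shares of up to 6.38% and 4.29%, so a gain at the background share was not detectable.

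In the whole window 10 of 377 loops were gained and 0 lost in the authors' deposited table. The gained share was 2.65% (Wilson interval 1.45 to 4.81%), an interval that holds the 1.96% of the whole list, and 0 of 377 lost loops allows a share of up to 0.796%. The 10 gained loops fell into 4 separate regions out of the 26 regions of the window. Besides the block of 6 and the PVT1 loop, 2 gained loops of 491 and 495 kb began at 127187179, at CASC19, and ended at 127678215 and 127682071, upstream of CASC11 and MYC. These were 2 of the 10 listed loops of that region. The last gained loop, of 140 kb, ran from 129545418, inside CCDC26, to 129684934, a listed position just past the end of that gene at 129680239. Read 5 kb inward, both ends of this loop overlapped CCDC26. Of the 7 gained loops in the window that did not touch MYC, 4 had an end within 50 kb of it.

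The window formed a closed set of loops. No listed loop had 1 end inside and the other outside, so that the same 377 were found when a single end sufficed. Of the 250 that did not touch MYC, 119 had an end within 50 kb of it and 53 spanned the whole gene. Regions away from MYC included 25 loops of 289 to 326 kb from LOC105375751 to sites up to and including CASC19, and 26 loops of 216 to 254 kb that ended in CCDC26. Loops also joined the partner stretches of MYC to each other, with 19 loops over 6 of 55 possible pairs of stretches. Of these, 8 joined the stretch at 435 to 457 kb and 4 the distal end of PVT1 to the large stretch at 881 to 965 kb, and 4 joined that stretch to the one before GSDMC. None of the 19 was gained.

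**Figure D4:**
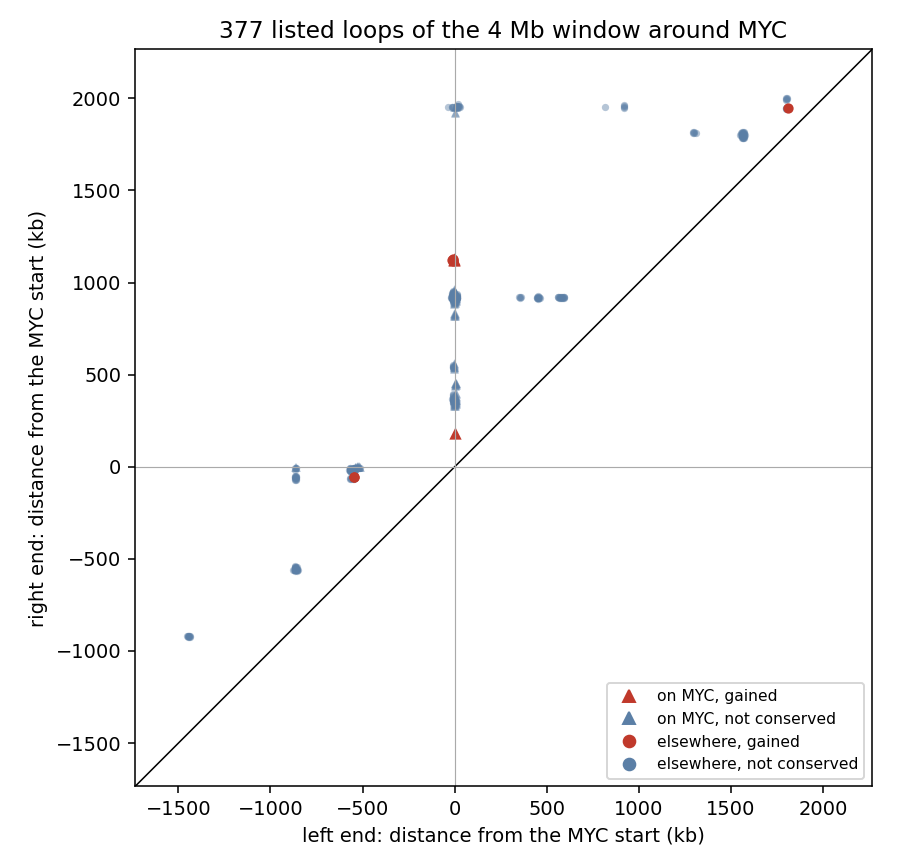
The 377 listed loops of the window, each at the distance of its left end (x axis, kb) and of its right end (y axis, kb) from the MYC start, with triangles for loops on MYC, circles for the others and red for gained loops. Most points line up at 0 kb on either axis, where 1 end lies on or beside MYC, and the 10 gained loops sit in 4 places.

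Loops at MYC were long. Their median length was 548 kb (524 to 838 kb, a binomial interval of the median) in the authors' deposited table, with a range of 179 to 1958 kb. The median of the window was 531 kb (518 to 540 kb), and the median of all listed loops was 234 kb. Of the loops at MYC, 55.1% were 500 to 1000 kb long and 6.30% longer than 1000 kb, against 11.5% and 0.845% of all listed loops. None was shorter than 100 kb, a class that held 17.5% of all listed loops. The window around MYC was set against the 673 windows of 4 Mb, laid along the genome from position 2 Mb onward, that held a listed loop. It had more loops than 65.8% of them (377, against a median of 244). Its median length exceeded that of 94.2% of the windows. As many gained loops or more were found in 24.5% of the windows, and a lost loop in 12.8%.

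The gained loops of the window were shorter than 500 kb or longer than 1000 kb. In the authors' deposited table, none of the 187 loops of 500 to 1000 kb in the window was gained, which allows a share of up to 1.60%, against 3.57% of all listed loops of that length. Above 1000 kb, 6 of 31 loops in the window were gained (19.4%, Wilson interval 9.19 to 36.3%). The share was 11.0% of all such loops and 16.4% of those on chromosome 8 outside the window. The 6 in the window were the single block described above, so each of these figures rests on few independent regions and the difference was not tested.

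**Figure D5:**
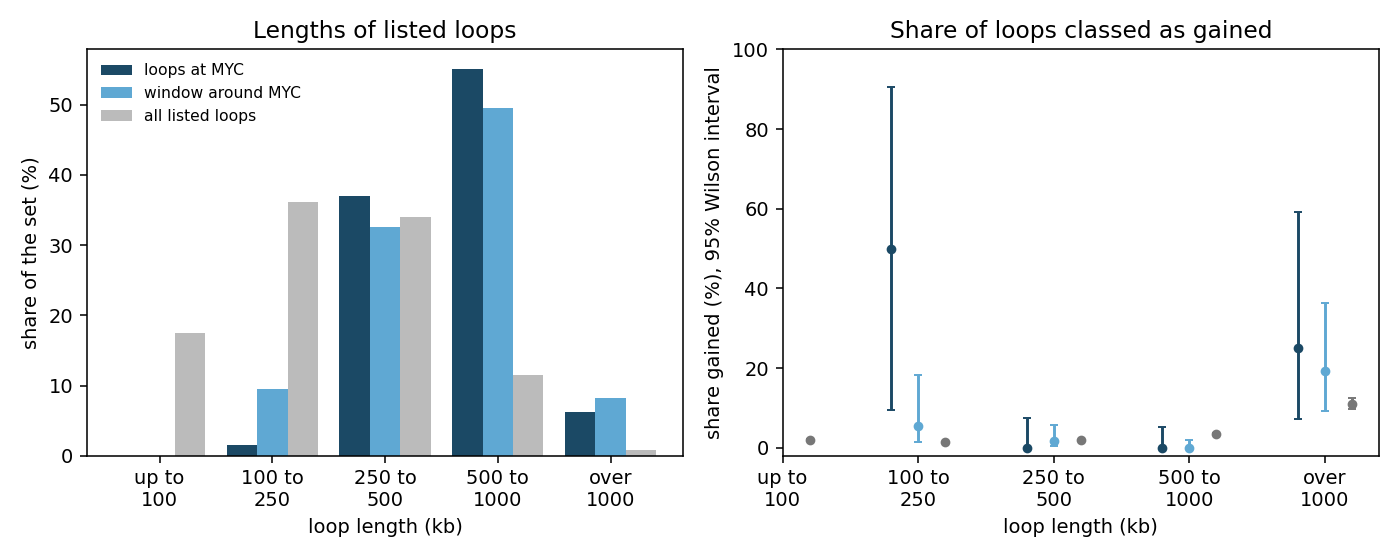
Left, the share of listed loops (y axis, %) in 5 length classes (x axis, kb) for loops at MYC, the window and the whole list; right, the share of each class that was gained, with 95% Wilson intervals. Loops at MYC and in the window sit mostly at 250 to 1000 kb, and no loop of 500 to 1000 kb in the window was gained.

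MYC was among the genes with most listed loops, and other genes with a like number of loops had from 0 to 70 gained ones. Of 9909 protein-coding genes with a listed loop end, 387 had more loops than MYC, which had more than 96.1% of these genes, and the median was 15. In the authors' deposited table, 32.1% of the 340 protein-coding genes with 102 to 152 listed loops had at least 1 gained loop, 5.88% had a lost one, and 60 (17.6%) had more than the 3 of MYC. Over all protein-coding genes with a listed end, 12.7% had a gained loop and 1.85% a lost one. The genes whose loops were spread most like those of MYC over 10 classes of length and side were taken among 2403 genes with at least 50 loops. They were LOC105373456 on chromosome 2 (0.151 as the summed difference of shares times 0.5, where 0 is identical, with a median of 0.916 over the genes), and LOC105372107 on chromosome 18, LOC107985072 on chromosome 17, and LOC107986774 and TMEM196 on chromosome 7 (0.165 each). These genes had 100% of their loops on the higher-coordinate side, against 89.8% at MYC. LOC107986774 and TMEM196 overlap, and their counts of 124 loops share ends.

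Along the chromosome, 27 of 28 neighbours of MYC on a gene list were found in the annotation (TMEM75 was not), and 11 had a listed loop, 6 a gained one and 0 a lost one. Beside these stand the 12.7% of protein-coding genes with a listed end that had a gained loop, but the neighbours include lncRNA genes, differ widely in their number of loops and share loops, so the count is not read as a difference. Outside the window lay 4 of these 11, NSMCE2, a SUMO ligase gene (5 of 267 loops gained), ASAP1, an Arf regulator gene (5 of 87), the pseudokinase gene TRIB1 (0 of 20) and the WASH complex gene WASHC5 (0 of 16). CASC11, whose body ends 1.47 kb before the MYC start, had 152 loops with 6 gained in the authors' deposited table, and 56 of the 152 were also counted at MYC. CCDC26 had 1 of 45 gained and CASC19 2 of 23.

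The MYC network was described by 4 gene lists of 53 genes in all, of which 34 had a listed loop, 7 a gained one and 3 a lost one. Among the MYC family and MAX partners, 10 of 12 had a listed loop. The carbohydrate-responsive factor gene MLXIPL had 1 of 51 gained and MXD3, which encodes a MAX-binding antagonist of MYC, had 2 of 41 lost. MYCN and MAX had 0 listed loops and MYCL 6. Among genes for MYC stability and cofactors, 8 of 14 had a listed loop and 3 a gained one. Both listed loops at FBXW7, the ubiquitin ligase subunit that marks MYC for degradation, were gained in the authors' deposited table, as were 1 of 15 at the deubiquitinase gene USP36 and 1 of 109 at TRRAP, a histone acetyltransferase scaffold. Of all listed loops 1.96% were gained and 0.196% lost, and the 2 loops at FBXW7 are too few to read a share.

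Among Wnt effectors, 9 of 12 genes had a listed loop. TCF7, a TCF-family factor gene, had 14 of 51 gained, and its relative TCF7L1 had 3 of 187, which was the only gene of the 4 lists with more listed loops than MYC. The beta-catenin scaffold gene AXIN1 had 3 of 24 lost and PYGO2, a beta-catenin coactivator gene, 1 of 20 lost in the authors' deposited table. CTNNB1, which encodes beta-catenin, and TCF7L2 had 0 listed loops. Among 15 textbook MYC targets 7 had a listed loop, and the polyamine enzyme gene ODC1, with 18 of 63 gained, was the 1 with a gained loop. The share of genes with a gained loop, 7 of the 34 with a listed loop, stands beside 12.7% of all protein-coding genes with a listed end. The 3 of 34 with a lost loop stand beside 1.85% of the same genes. These sets were not matched on the number of loops, so neither count is read as a difference. Over all listed loops 1.96% were gained and 0.196% lost, and neighbouring loops at 1 gene are not independent.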

How the data were processed

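Hi-C was made from 3 samples with DpnII digestion, biotin fill-in and ligation, per the labels' protocols. The authors' deposited loop list gives positions, in hg38 per its name, and a class word per loop. The submitters' processing notes name Bowtie, hg19 and hg38 without roles; the sources used here do not give the loop caller, normalisation and thresholds. Of 279669 rows, 49 without a class word and 2 repeats were left out. The 6 per-sample compartment columns, named S1, S2 and S3, match no sample label and were not used, so no compartment scores are given for the window.

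Loop ends were read 5 kb inward, which gave 127 loops at MYC, and loops were joined into regions when both ends lay within 10 kb of another's. Gene bodies came from RefSeq (GRCh38.p14, the assembly that hg38 names). Python 3.11.15, pandas 2.3.3 and scipy 1.17.1 were used. Checked on made-up loops, counting recovered the planted numbers at 200 of 200 genes and joining 50 of 50 regions. Named genes were MYC, a list of neighbours, genes at partner ends and at gained loops of the window, 4 MYC network lists and the 5 genes most like MYC in loop length and side. MYC and the lists were chosen with earlier results of these data known. Alternatives changed the width of a loop end, the window, the shortest loop, the joining distance and the background.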

Additional observations from a re-analysis of the deposited data

How the results depend on the processing

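In 37 of 44 alternatives, counts stayed within 1.5 times their value and shares and medians within their intervals. Some of these could not differ. No loop at MYC or in the window was shorter than 100 kb, and no loop crossed the edge of the window. Leaving out shorter loops, or asking for a single end in the window, therefore returned the same loops. The number of loops at MYC depended on the width given to a loop end. It was 81 with the listed position alone, 90 with 2.5 kb to each side and 161 with 10 kb inward, and the gained loops were then 1, 1 and 6. With 10 kb, 5 loops of the gained block reach MYC, and with the other 2 widths its left ends stop short of the gene body. A window 1 Mb wider on each side held 757 loops and 20 gained, with a median length of 518 kb. Lost loops were 0 under every alternative run. The gained share at MYC was 0.40 percentage points above that of the whole list, 0.38 above that of the autosomes and -0.071 against chromosome 8 outside the window. No paired analysis was possible because the list gives no values per sample and there was 1 library in each group. The list gives no depth, so what depth limits was not examined.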

Other observations

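The window held most of the longest loops of the whole list. In the authors' deposited table, 36 loops were longer than 1900 kb, on 4 chromosomes, and 20 of them (55.6%) lay in the window around MYC, 6 with an end on the gene. This bound was chosen after the lengths were seen. Above 1800 kb the window held 20 of 68 (29.4%). The 20 fell into 3 regions that ran from CASC11 and MYC to the distal end of CCDC26 and the stretch before GSDMC, with 17, 2 and 1 loops, and the last of these, of 1990 kb, was the longest loop in the list. None of the 20 was gained, and 5 of the 36, which include these 20, were. Of all listed loops over 1000 kb, 11.0% were gained. The 20 loops make up few separate regions, so their count of gained loops is not read as a difference. On chromosome 8 outside the window the longest listed loop was 1385 kb.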
